A study of Schizosaccharomyces pombe with 4 samples.

Results

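Centromeres II and III of fission yeast are silent regions of the genome, and the mating-type region holds silent cassettes beside ordinary genes. They are described here with the gene-bearing DNA on either side. The regions were chosen by position alone, as chrII:1580000-1670000, chrIII:1050000-1160000 and chrII:2100000-2150000. They hold 472 of the 42707 genomic probes on each array, with 175 at centromere II, 149 at centromere III and 148 at the mating-type region. Of these probes 447 had a usable value in both immunoprecipitations, and 380 had one on all 4 arrays.

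Cdk11 is a cyclin-dependent kinase that acts with cyclin L on the transcription machinery, and the study concerned its part in assembling Mediator, the coactivator of RNA polymerase II. The 4 arrays form 1 group of wild-type Schizosaccharomyces pombe whose Cdk11 carried an HA tag, grown at 32 °C in rich YES medium to mid-log phase and fixed with 3% formaldehyde for 10 min. Chromatin of about 500 bp was pulled down with an anti-HA antibody, and replicates 1 and 3 are hybridisations of the first immunoprecipitation, replicates 2 and 4 of the second. So n = 2 throughout. Every array set this DNA against input DNA, and no untagged strain was analysed here, so binding of the tag or the antibody on its own has no measured background.

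The labels place the immunoprecipitated DNA in Cy3 and the input in Cy5, but the ratios in the authors' deposited table have the opposite sign to Cy3 over Cy5, so the direction of enrichment is not settled. Every ratio below is log2(Cy3/Cy5) relative to the median probe of its array. A negative value is thus higher in Cy5, whichever DNA that channel held.

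Fission yeast centromeres are built around a central domain where the histone variant Cnp1 (CENP-A) takes the place of the canonical histone and the kinetochore forms. Around it lie inverted repeats packed into heterochromatin, which the RNA interference machinery and the methyltransferase Clr4 establish and the protein Swi6 binds. Clusters of transfer RNA genes, read by RNA polymerase III, sit at the edges of these domains and act as barriers. At the mating-type region the mat1 cassette is expressed and decides the mating type, whereas the mat2 and mat3 cassettes are kept silent by the same kind of heterochromatin and serve as donors for switching. Silent chromatin is read little by RNA polymerase II in growing cells, so the silent parts of these regions are a natural contrast to the genes beside them.

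The inside of each centromere was taken as the longest stretch with no coding gene. At centromere II it ran over chrII:1596745-1648231, 51.5 kb between rpb1 and yox1, and at centromere III over chrIII:1064444-1142615, 78.2 kb between chk1 and ppc1. The inside of the mating-type region ran from mat1-Mi to mat3-Mc, chrII:2114219-2133394, and it also holds ordinary coding genes such as rpt6 and mag2. The annotation used lists no mat2 gene in that window. The central domain of each centromere was taken as the stretch between the closest inverted pair of transfer RNA genes for the same amino acid. At centromere II these are valine genes around chrII:1619257-1629158, and at centromere III leucine genes around chrIII:1096186-1102808. The inverted pairs are shown because they mark the domain edges and because each pair is identical base for base, 83 of 83 bases at centromere II and 101 of 101 at centromere III. In these sequences, written 5′ to 3′ on the gene's own strand, capitals would mark a difference within a pair, and there is none.
SPBTRNAVAL.06: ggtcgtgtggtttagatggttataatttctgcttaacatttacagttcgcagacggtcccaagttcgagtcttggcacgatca
SPBTRNAVAL.07: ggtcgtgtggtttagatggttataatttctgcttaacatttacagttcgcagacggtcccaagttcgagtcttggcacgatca
SPCTRNALEU.12: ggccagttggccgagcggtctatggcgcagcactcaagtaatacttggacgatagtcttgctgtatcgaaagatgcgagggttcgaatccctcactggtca
SPCTRNALEU.13: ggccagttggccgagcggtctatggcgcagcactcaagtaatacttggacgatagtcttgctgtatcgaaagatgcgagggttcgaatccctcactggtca

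Repeats decided where the arrays could measure. All 472 probe sites had central 40 bases that occur once in the reference. At centromere II no probe lay in chrII:1603683-1620841 or chrII:1627571-1643203, where 97.8 and 96.6% of the 40-base words occur more than once in the nuclear genome. At centromere III no probe lay in chrIII:1069859-1097234 or chrIII:1098897-1140818, where these shares were 98.3 and 99.3%. The repeats were therefore largely unmeasured. What was measured inside is 24 probes in the central domain and 15 toward the coding edges at centromere II, and 7 and 23 at centromere III. In the flanks of the centromeres only 0.15% and 0% of such words were repeated.

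The mating-type genes fell in the same blind spot. None of mat1-Mi, mat1-Mc, mat3-Mi and mat3-Mc, which encode the M-specific regulators, had a probe. The mat1 and mat3 copies of Mc were identical over 546 bases and those of Mi over 129 bases, shown here on the coding strand with capitals reserved for differences, of which there are none.
mat1-Mi: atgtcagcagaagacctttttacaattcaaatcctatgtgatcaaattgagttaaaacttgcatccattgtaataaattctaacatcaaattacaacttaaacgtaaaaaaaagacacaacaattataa
mat3-Mi: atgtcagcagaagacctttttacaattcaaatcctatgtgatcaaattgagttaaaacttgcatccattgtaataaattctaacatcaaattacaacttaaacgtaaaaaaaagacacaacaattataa
The mating-type region was read through 46 probes from mat1 to its last ordinary gene, rpp202, and 8 probes on the mat3 side of it.

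The first 7 probe sites below carry the single-probe results described further on and hold no untranslated base. They are written on the reference strand of ASM294v3, with coding bases in capitals. The other lines are the central domain sites with the lowest loess-corrected ratios, 2 at centromere II and 1 at centromere III, which hold no coding base.
rpb1 probe chrII:1592323-1592381: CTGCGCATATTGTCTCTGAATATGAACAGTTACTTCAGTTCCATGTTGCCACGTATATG
rpb1 probe chrII:1593168-1593227: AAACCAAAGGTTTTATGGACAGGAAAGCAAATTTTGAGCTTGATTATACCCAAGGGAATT
Intergenic probe chrII:1654483-1654540: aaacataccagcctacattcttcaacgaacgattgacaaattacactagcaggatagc
pdx1 probe chrIII:1050264-1050323: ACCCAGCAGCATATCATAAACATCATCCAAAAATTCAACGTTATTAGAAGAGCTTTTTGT
cbp3 probe chrIII:1145099-1145154: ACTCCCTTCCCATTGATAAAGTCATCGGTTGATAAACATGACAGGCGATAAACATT
rpt6 probe chrII:2121699-2121756: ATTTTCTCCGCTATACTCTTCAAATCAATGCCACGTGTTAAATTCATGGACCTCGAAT
rpl401 probe chrII:2143642-2143699: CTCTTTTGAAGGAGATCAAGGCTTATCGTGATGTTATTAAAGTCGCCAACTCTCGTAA
Central domain II probe chrII:1624700-1624759: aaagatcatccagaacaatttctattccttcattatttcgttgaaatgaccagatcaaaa
Central domain II probe chrII:1625116-1625175: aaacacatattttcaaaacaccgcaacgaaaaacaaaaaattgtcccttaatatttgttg
Central domain III probe chrIII:1097623-1097682: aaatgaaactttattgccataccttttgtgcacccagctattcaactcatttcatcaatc

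Signal depth differed by array and channel. The Cy3 signal was above local background at 98.9 to 100% of the probes in every inside and flank stretch, and the Cy5 signal at 76.7 to 100%. Inside centromere II the median Cy5 signal was 3.14, 5.24, 6.0 and 9.71 times that of the negative control spots on replicates 1 to 4. Over the probes of the 3 windows, Cy3 signals repeated closely from array to array, with correlations of 0.89 to 0.93, whereas Cy5 signals repeated at 0.37 to 0.62 and the ratio at 0.15 to 0.32. Neighbouring probes share chromatin fragments, so these correlations only describe the arrays.

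The first question was whether the ratio differs between the inside of each region and its flanks. At the mating-type region 46 of the 54 inside probes lie between mat1 and the last ordinary gene. That contrast is therefore not one of silent chromatin alone. In the centred ratio the means over inside and flank probes differed by no more than 0.07 in any of the 3 regions, although at centromere III medians over probes gave -0.24. Inside centromere II the mean over probes was 0.09, -0.23, -0.21 and 0.04 on replicates 1 to 4, and in its flanks -0.09, -0.07, -0.09 and 0.00. The inside values lay on both sides of those of the flanks. Inside minus flanks was -0.01 ± 0.07 (SD, n = 2), with an exact two-sided sign-flip p of 1. With 2 immunoprecipitations that test cannot give less than 0.5.

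Inside centromere III the means were -0.24, -0.18, -0.01 and 0.14, and in its flanks -0.14, -0.02, 0.08 and 0.06. The inside was lower on 3 of 4 arrays, and the difference was -0.07 ± 0.04 (SD, n = 2; exact sign-flip p = 0.5). At the mating-type region the inside means were -0.21, -0.21, -0.14 and -0.04 and the flank means -0.47, -0.21, -0.05 and -0.03. All 8 of these means were negative, so the whole window, genes included, sat slightly toward Cy5. The inside differed from the flanks by 0.04 ± 0.06 (SD, n = 2; exact sign-flip p = 1). Against only the flanks within 10 kb the differences were 0.10, -0.20 and -0.03 for centromere II, centromere III and the mating-type region. Leaving out replicate 1 moved the differences for centromere II and the mating-type region to -0.09 and -0.05. Leaving out replicate 3 moved them to 0.06 and 0.13.

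A correction for spot brightness, by loess within each array, changed this picture. Inside centromere II minus flanks became -0.36, -0.36, -0.33 and -0.22 on replicates 1 to 4, a mean of -0.32 ± 0.04 (SD, n = 2). For centromere III it became -0.49, -0.36, -0.27 and -0.18, a mean of -0.32 ± 0.08. For the mating-type region it became 0.59, 0.31, 0.33 and 0.24, a mean of 0.37 ± 0.13. All 4 arrays then had the centromeres lower, and the mating-type inside higher, than their flanks, although 0.5 remains the smallest exact p. In the authors' deposited table with its sign turned, the means were -0.34, -0.33 and 0.38. That table correlated with the loess-corrected values at 0.989 to 0.998, so it is not a separate check on them.

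Brightness itself separated the inside from the flanks in both channels. The Cy3 signal inside centromere II was lower than in the flanks by 0.52, 0.54, 0.37 and 0.40 on replicates 1 to 4, with a mean difference of -0.46 ± 0.02 (SD, n = 2). The Cy5 signal differed there by -0.71, -0.38, -0.25 and -0.44, a mean of -0.44 ± 0.05. At centromere III the mean difference was -0.39 ± 0.03 for Cy3 and -0.32 ± 0.07 for Cy5. Inside the mating-type region the signals were higher than in the flanks, by 0.42 ± 0.05 for Cy3 and 0.38 ± 0.01 for Cy5. Every array had these signs in both channels, and because both channels moved by similar amounts the ratio barely changed.

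GC content was lower inside than in the flanks of all 3 regions. Probes inside centromeres II and III had a mean GC content of 34.7 and 34.5%, against 36.7 and 36.5% in the flanks, and inside the mating-type region 35.7% against 36.9%. Within that inside the mat3 side had 31.7% and the stretch from mat1 to the last gene 36.3%, with mean Cy3 signals of -0.40 and 0.40. The part of GC content in the brightness differences was not tested. On the 4 arrays the ratio correlated with brightness over all probes at -0.64, -0.47, -0.55 and -0.63. With a linear correction for GC content the differences in ratio were -0.04, -0.10 and 0.02. The part of brightness in the loess-corrected difference was not tested.

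The central domains, where the kinetochore assembles, were the dimmest stretches of the 3 windows in Cy3, averaging -0.57 and -0.71 at centromeres II and III. At centromere II the Cy3 signal of the central domain was -0.64, -0.68, -0.48 and -0.50 relative to the median probe on replicates 1 to 4, and the Cy5 signal -0.48, -0.37, -0.25 and -0.58. The ratio was -0.14, -0.29, -0.18 and 0.07, a mean of -0.13 ± 0.04 (SD, n = 2), so 3 of 4 arrays were negative. After loess the ratio was -0.52, -0.48, -0.43 and -0.26, a mean of -0.43 ± 0.08. Of the 24 central probes 16 were negative in the centred ratio, from -0.77 to 0.77, and 20 after loess.

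The central domain of centromere III went different ways in the 2 immunoprecipitations. Its ratio was -0.70 and -0.28 on replicates 1 and 3, and 0.32 and 0.53 on replicates 2 and 4. Its Cy3 signal was alike on all arrays, at -0.91, -0.69, -0.51 and -0.72 on replicates 1 to 4. The Cy5 signal was -0.19 on both arrays of the first immunoprecipitation, but -0.98 and -1.26 on those of the second. The median Cy5 signal there was only 1.98, 2.04, 4.50 and 5.31 times that of the negative control spots on replicates 1 to 4. These values come from 7 probes, of which 4, 6, 5 and 7 were kept on replicates 1 to 4, and the cause of the split was not tested. The mean ratio of -0.03 ± 0.65 (SD, n = 2) therefore describes neither immunoprecipitation.

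The edges of the centromeres lie between the repeats and the coding flanks. At centromere II the left edge, next to rpb1, had a ratio of 0.38, -0.11, -0.31 and -0.21, and the right edge, next to yox1, 0.36, -0.16, -0.17 and 0.27. Both edges thus crossed 0 between arrays. At centromere III the left edge had -0.02, -0.27, 0.17 and 0.11, again on both sides of 0. The right edge, next to ppc1, was negative on all 4 arrays, at -0.39, -0.38, -0.16 and -0.17, and 7 of its 8 probes were negative. In the centred ratio its mean of -0.27 lay farther from 0 than those of both central domains. After loess it was -0.42, against -0.43 and -0.47 in the central domains of centromeres II and III. The left edge of centromere III was then negative on all 4 arrays, at -0.29, -0.41, -0.06 and -0.11. The left and right edges of centromere II had means of 0.09 and -0.19 after loess.

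At the mating-type region the mat3 side stood below the stretch with genes. Its 8 probes, from beyond rpp202 to the mat3 cassette, had a mean ratio of -0.57, -0.39, -0.46 and 0.10 on replicates 1 to 4, and -0.71, -0.43, -0.54 and -0.15 after loess. Of these probes 7, 7, 5 and 7 were kept on replicates 1 to 4. The stretch from mat1 to the last gene had -0.14, -0.18, -0.11 and -0.06, and 0.42, 0.18, 0.33 and 0.20 after loess. Both stretches were thus mostly negative in the centred ratio, whereas after loess they parted, with all 4 arrays positive over the genes and negative on the mat3 side. Their Cy3 signals were apart as well, -0.40 ± 0.03 on the mat3 side against 0.40 ± 0.05 over the genes (SD, n = 2). A narrower inside made only of the gene-free DNA around mat3, chosen after the values were seen, differed from the rest of the window by 0.07 ± 0.16, and by -0.30 ± 0.23 after loess.

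Transfer RNA genes cluster inside both centromeres, 27 at centromere II and 21 at centromere III. With 250 bp added on each side, 7 and 9 of them had a probe, often shared with a neighbouring gene. Their ratios had a median of -0.35, and 14 of the 16 were negative. The 103 transfer RNA genes elsewhere that had a probe had a median of -0.37, with 87 negative, so the centromeric genes lay near the others. The single highest was SPCTRNALEU.11 at centromere III, at 1.13, 0.65, 0.55 and 0.71 on replicates 1 to 4 from 2 probes, positive on every array. The lowest were SPCTRNAVAL.12 at -0.77 ± 1.00 and SPCTRNASER.09 at -0.73 ± 0.11 (SD, n = 2). SPCTRNAVAL.12 was low in the first immunoprecipitation only, with -1.44 and -1.51 on replicates 1 and 3 and 0.06 and -0.19 on replicates 2 and 4.

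In 5 kb bins, 29 of the 50 bins of the windows held at least 5 usable probes on every array, and 4 of these 29 were called higher in Cy5 by limma at an adjusted p of 0.05. Over the genome 9.33% of bins were called in that direction and 1.77% higher in Cy3, where the windows had 0 of 29. At an unadjusted p under 0.05, 2 bins were higher in Cy3, chrII:1580000-1584999 at 0.23 and chrIII:1055000-1059999 at 0.30. Over the genome 566 of 2434 bins had such a limma p in either direction. No called bin lay inside a centromere, but few bins could be tested there. Those wholly inside were only chrII:1620000-1624999, chrII:1625000-1629999 and chrIII:1065000-1069999. The lowest called bin was chrII:2140000-2144999, right of the mating-type region, where the ribosomal protein gene rpl401 lies. It had -0.67, -0.59, -0.49 and -0.24 on replicates 1 to 4, a mean of -0.50 ± 0.12 (SD, n = 2; limma adjusted p = 0.00046), and it was negative on every array. The bin chrII:2125000-2129999, which holds SPBC23G7.14 and rpp202, was at -0.37 ± 0.20, chrII:1665000-1669999 at -0.35 ± 0.09 and chrIII:1050000-1054999 at -0.34 ± 0.21. Leaving out replicates 1, 2, 3 and 4 in turn left 2, 1, 0 and 3 bins called toward Cy5.

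The bins of the centromere II central domain behaved differently under loess. The bin chrII:1620000-1624999 had a centred ratio of -0.10 ± 0.00 (SD, n = 2; limma adjusted p = 0.69) and chrII:1625000-1629999 one of -0.19 ± 0.10 (limma adjusted p = 0.34). After loess they had -0.44 and -0.40, with limma adjusted p of 1.8e-06 and 1.9e-05. Over the genome 13.6% of bins were called higher in Cy5 after loess and 6.16% higher in Cy3, and in the windows these were 7 and 2 of 29. The highest after loess was chrII:2120000-2124999, across mag2, rpt6 and the urea transporter gene SPBC23G7.13C, at 0.49 with a limma adjusted p of 8.2e-08 against -0.01 in the centred ratio.

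Single probes were called rarely. Of the 447 tested, 11 were called higher in Cy5, or 4, 3 and 4 at centromere II, centromere III and the mating-type region, and 1 higher in Cy3. Over all probes the shares called were 2.31% toward Cy5 and 0.226% toward Cy3, so these counts lie near the background. None of the 67 tested probes inside the centromeres was called. An unadjusted limma p under 0.05 was found for 1 of 39 at centromere II and 5 of 28 at centromere III, against 5508 of 41237 over all probes. After loess 7 of 39 inside centromere II and 4 of 28 inside centromere III were called toward Cy5, and 2 and 0 toward Cy3. In all 3 windows together, after loess, 37 and 22 of the 447 were called toward Cy5 and Cy3, where the shares of all probes were 7.3 and 4.1%. Without replicates 3 and 4, in turn, the calls toward Cy5 numbered 3 and 5. By size alone, 35 probes were at least 1.5-fold toward Cy5 in both immunoprecipitations and 17 toward Cy3, against 6.69% and 4.17% of all probes. Inside the mating-type region this was 7 of 50 toward Cy5, inside centromere II 1 of 39 and inside centromere III 3 of 28.

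The largest single value was in pdx1, at chrIII:1050264-1050323 at the far left of the centromere III window, within coding sequence. It read -3.08, -2.23, -2.40 and -2.07 on replicates 1 to 4, 5.44-fold toward Cy5 (limma adjusted p = 5.6e-07), and it was called under every alternative run. The next was the probe at chrIII:1153943-1154002, in an untranslated part of set9, a histone methyltransferase gene. It read -2.67, -1.89, -1.74 and -1.89, 4.14-fold toward Cy5, but 0.18 after loess. Inside the mating-type region the lowest was chrII:2127999-2128058, where the ends of SPBC23G7.14 and the ribosomal protein gene rpp202 overlap, at -2.75, -1.10, -1.44 and -1.76. The other there was the rpt6 probe shown above, at -1.81, -1.10, -1.50 and -1.54, and at 0.15 after loess.

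At centromere II the lowest probe usable on all 4 arrays was at chrII:1592323-1592381 in rpb1, the gene of the largest RNA polymerase II subunit, which borders the centromere. It read -2.11, -1.30, -2.11 and -1.25, and another rpb1 probe at chrII:1593168-1593227 read -2.43, -0.31, -2.32 and -0.77. The 2 probes between them, at -0.53 and -0.86, were not called. Both called probes were lower on the arrays of the first immunoprecipitation. The probe at chrII:1665518-1665577, at the end of SPBC21B10.15, had a mean of -1.72 but was usable on 1 array of each immunoprecipitation, at -2.40 and -1.03. The call toward Cy3 was at chrII:1654483-1654540, just beyond the 5′ end of the acetyl-CoA transporter gene SPBC21B10.09. It read 2.00, 0.66, 1.98 and 0.76, positive on all 4 arrays and higher in the first immunoprecipitation. At chrIII:1145099-1145154 in cbp3 the values were -2.55, -1.15, -0.55 and -0.91, with an adjusted p of 0.049.

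Runs of at least 3 neighbouring probes, each 1.5-fold or more toward Cy5 in both immunoprecipitations, numbered 3 in the windows of 202 in the genome. They covered the ribosomal protein gene rps402 at chrII:1650868-1651585, chrII:2127558-2128058 within SPBC23G7.14, whose last probe also lies in the overlapping end of rpp202, and rpl401 at chrII:2143642-2144186. Their mean ratios were -1.01, -1.22 and -1.28. No run toward Cy3 lay in the windows, of 14 in the genome. After loess no run of either direction lay there, of 105 toward Cy5 and 21 toward Cy3 in the genome. The windows hold 472 of the 42707 probes, so such small counts say little about these regions.

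Of the 56 coding genes lying wholly in the windows, 45 had at least 2 usable probes on every array. limma called 5 of these 45 toward Cy5 and 2 toward Cy3, where 7.95% and 1.6% of all coding genes tested were called. After loess 2 and 4 were called, against 6.83% and 2.74% of all coding genes. The median over the 45 genes was -0.07, against -0.03 over the 4012 genes tested. Leaving out replicates 1, 2, 3 and 4 in turn left 3, 2, 0 and 6 genes called toward Cy5 and 0 toward Cy3 each time.

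The 2 lowest were ribosomal protein genes in the flanks. rps402 (chrII:1650825-1651833, 3 probes), which encodes a protein of the small subunit, had -0.98, -0.83, -1.10 and -1.12 on replicates 1 to 4. All 4 arrays lay close together, and the mean of -1.01 ± 0.05 (SD, n = 2) corresponds to 2.01-fold toward Cy5 (limma adjusted p = 3.0e-06). After loess it was -0.23 with an adjusted p of 0.25. rpl401 (chrII:2143120-2144391, 6 probes), which encodes a protein of the large subunit, had -1.24, -0.65, -0.87 and -0.89, a mean of -0.91 ± 0.20 (limma adjusted p = 3.3e-05), and remained called after loess at -0.48. Its Cy5 signal was high on every array, at 1.33 and 0.77 on replicates 1 and 2, while its Cy3 signal was near the median probe at 0.07 and 0.09.

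The other 3 genes toward Cy5 were at the mating-type region. mtd1 (chrII:2139791-2141050), a methylenetetrahydrofolate reductase gene, had -1.34, -1.02, -0.43 and 0.03, so replicate 4 did not share the direction. Its mean was -0.69 ± 0.28 (SD, n = 2; limma adjusted p = 0.0035), and it stayed called after loess at -0.55, but not without replicate 1, 2 or 3, with adjusted p of 0.17, 0.43 and 0.14. SPBC23G7.14 (chrII:2126506-2128132), which has no assigned function in the annotation, had -1.12, -0.69, -0.52 and -0.19, a mean of -0.63 ± 0.27 (limma adjusted p = 0.0093), and 0.16 after loess. rpt6 (chrII:2121444-2122816), which encodes an ATPase of the proteasome's regulatory particle, had -0.39, -0.89, -0.68 and -0.48, a mean of -0.61 ± 0.11 (limma adjusted p = 0.014). It was bright in both channels, at 0.83 to 1.07 in Cy3, and after loess its value turned to 0.56 with an adjusted p of 0.021.

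Toward Cy3 the called genes were mag2 and ppc1. mag2 (chrII:2120257-2121050), a DNA repair glycosylase gene beside rpt6, had 1.86, 0.30, -0.12 and 0.24 on replicates 1 to 4, so replicate 1 alone was far from 0. Its mean was 0.57 ± 0.42 (SD, n = 2; limma adjusted p = 0.025) and fell to 0.08 without replicate 1. With all arrays it was 0.78 after loess, with a limma adjusted p of 0.0022. ppc1 (chrIII:1142616-1144233), the coenzyme A synthesis gene that borders centromere III, had 0.90, 0.39, 0.35 and 0.61, positive on every array. Its mean was 0.56 ± 0.09 (SD, n = 2; limma adjusted p = 0.027), and 0.29 after loess with an adjusted p of 0.13.

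Other genes next to the edges of the inside stretches were not called. rpb1 (chrII:1591140-1596744, 19 probes), left of centromere II, had -0.45, -0.18, -0.54 and -0.31, negative on every array, with a mean of -0.37 ± 0.18 (SD, n = 2; limma adjusted p = 0.23). hmo1, which encodes a transcription factor of RNA polymerase I and lies next to rpb1, had a mean of -0.09 ± 0.34. On the right, yox1, a corepressor gene of the MBF cell cycle factor, had -0.17 ± 0.34, and rec6, which is needed for meiotic recombination, 0.19 ± 0.71. For rec6 that spread comes from replicate 1 at 1.42 against -0.62, -0.03 and 0.00 on replicates 2 to 4.

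At centromere III, chk1, the DNA damage checkpoint kinase gene, and meu27, which overlaps it and is upregulated in meiosis, had 0.15 ± 0.28 and 0.18 ± 0.30 (SD, n = 2). They share probes, so they are not separate measurements. Beyond ppc1, cmc2, a gene for assembly of cytochrome c oxidase, had -0.23 ± 0.11. Left of the mating-type region cms1, of the small subunit processome, had 0.23 ± 0.11, and on the right emc3 had -0.10 ± 0.36. The lowest limma adjusted p among these was 0.55.

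Among the remaining genes of the windows, those farthest toward Cy5 at centromere II were crr1, a glycosyl hydrolase family gene, at -0.39 ± 0.00, SPBC21B10.08C at -0.37 ± 0.11 and the ataxin-2-like gene ath1 at -0.36 ± 0.03. The highest were hrd3, of an endoplasmic reticulum ubiquitin ligase, at 0.17 ± 0.05, wat1, a subunit of the TOR kinase complexes, at 0.17 ± 0.18, inp2 at 0.09 ± 0.005 and SPBC21B10.09 at 0.07 ± 0.03. None of these genes was called. The crr1 arrays ran from -0.72 to -0.05, so its small SD hides a wider spread between hybridisations.

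At centromere III the highest after ppc1 were ubc11, a mitotic ubiquitin-conjugating enzyme gene, at 0.44 ± 0.02, gid1 at 0.38 ± 0.26 and the phosphatase regulator gene tip41 at 0.37 ± 0.27. Of these gid1 was called after loess, at 0.50 with an adjusted p of 0.024. The lowest were the transporter gene SPCC4B3.13 at -0.44 ± 0.21, mid1, which positions the division ring, at -0.23 ± 0.35, pgp1 at -0.20 ± 0.22 and gyp2 at -0.19 ± 0.34. At the mating-type region rrb1, a ribosome biogenesis gene, had -0.42 ± 0.15, and the translation initiation factor gene sui1 0.08 ± 0.29. The urea transporter gene SPBC23G7.13C had 0.05 ± 0.22 and srp40 0.01 ± 0.09.

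The genes whose products build the silent parts of these regions lie mostly elsewhere in the genome. Among all coding genes, 7.95% were called toward Cy5 and 1.6% toward Cy3, and after loess 6.83% and 2.74%. Of 23 genes of heterochromatin and RNA interference, 21 were tested and none was called by limma, in the centred ratio or after loess. In the centred ratio 0 of the 21 had an unadjusted limma p under 0.05, against 798 of the 4012 coding genes tested. Their median was 0.02, and they ran from -0.18 to 0.27. swi6, which encodes the heterochromatin protein named above, had 0.03, -0.11, 0.07 and 0.05 on replicates 1 to 4, and clr4, the methyltransferase gene, 0.12, 0.10, 0.12 and 0.08. The highest was chp1, which encodes a chromodomain protein of the RNA interference effector complex, at 0.27 ± 0.09 (SD, n = 2; limma adjusted p = 0.46).

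Of 28 genes of centromere chromatin and the kinetochore, 22 were tested, with a median of 0.08, and 1 was called toward Cy5, a share near that of all coding genes. It was fta3, a kinetochore subunit gene, at -1.55, -0.80, -0.12 and -0.36 on replicates 1 to 4, a mean of -0.71 ± 0.18 (SD, n = 2; limma adjusted p = 0.0025), negative on every array and called after loess too. cnp1, the gene of the centromeric histone, had 0.47, 0.28, -0.50 and 0.12. Of 19 genes of mating-type switching and its targets, 13 were tested, with a median of -0.07, and 1, sap1, was called toward Cy5, again near that share, at -1.05, -0.66, -0.97 and -0.50, a mean of -0.80 ± 0.30 (limma adjusted p = 0.00044). sap1 encodes an essential DNA-binding protein required for switching, and its value after loess was not called, with an adjusted p of 0.18. ste11, the master regulator gene of mating, had -0.39 ± 0.03 and was called after loess at -0.57. After loess 2 more of these genes were called, mei3 at -0.59 and mam3 the other way at 0.47, from -0.35 and -0.16 in the centred ratio.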

How the data were processed

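Per the labels, DNA from 2 immunoprecipitations was amplified by ligation-mediated PCR and hybridised on 4 two-colour arrays. The authors deposited scanner files with spot intensity values in both channels, the percent of pixels above background and, as a fraction, the squared pixel correlation. They also deposited a table of log2 ratios of unstated direction, which correlated with the loess-corrected log2(Cy5/Cy3) at 0.989 to 0.998. How it was made, and the genome build, are not given in the sources used here. Spots marked poor were left out (16.3, 5.28, 8.05 and 1.00% on replicates 1 to 4), except saturated ones with a squared pixel correlation over 0.3. log2(Cy3/Cy5) of the mean foreground signals was centred on each array's median, with no background subtraction. Processed Agilent signals, assumed at first, were not in these files, so mean foreground signals were used as given. Local background values were in the files and entered an alternative run with background correction.

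Array coordinates were compared with ASM294v3. Probes shorter than 60 bases began with A at 61.1% of 108 sites in the windows at the stated coordinate, against a median of 30.6% and a highest of 52.8% over the other offsets up to 50 bases. At the centromeres alone the margin over the next offset was small, 58.8 against 55.9% and 73.3 against 70.0%, and over 4056 probes of chromosome II it was 66.2 against 54.3%. In steps of 50 bp, signal correlated with GC content best at a shift of -50 bp in all 3 windows (0.51, 0.52 and 0.54, against 0.38, 0.33 and 0.53 unshifted). Sequences were read at the stated coordinates from RefSeq's ASM294v3. Duplicate arrays were averaged over each immunoprecipitation. Probes, 5 kb bins (at least 5 probes) and coding genes (at least 2 probes in the annotated span) were tested against 0 with limma 3.58.1 (R 4.3.3), Benjamini-Hochberg adjusted over all features. In the centred ratio limma gave all probes 1 shared variance, and likewise all 5 kb bins. For coding genes its prior had 176 degrees of freedom, so their p-values also rested mostly on a variance pooled over genes. The SD printed beside a gene thus hardly entered its p-value in the centred ratio. The fits were also run on simulated independent values with 1 common spread. Such values do not imitate neighbouring probes that share chromatin fragments. Inside minus flanks was tested by an exact two-sided sign flip.

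Genes named are the mating-type genes, the 2 genes next to each inside edge, the 5 farthest from 0 in each direction per window, the 3 most extreme centromeric transfer RNA genes and the 3 most extreme called probes per window and direction. A gene that this rule names is not reported here. Genes named from the pathway lists were chosen after their values were seen. The regions, gene lists and tests were chosen with earlier results of these data known. The number of arrays limits the precision.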

Additional observations from a re-analysis of the deposited data

Results flagged for a closer look

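On 3 of 65 items compared over the 4 arrays, 1 array lay far from the other 3 by Dixon's test, which by chance marks about 1 in 20, so about as many as were found. The bin chrIII:1050000-1054999 was at -0.89 on replicate 1 and between -0.22 and -0.09 on the others. The urea transporter gene SPBC23G7.13C was at 0.65 on replicate 1 and between -0.24 and -0.11 on the others. The gene emc3, right of the mating-type region, was at -0.87 on replicate 2 and between 0.13 and 0.18 on the others. What set these arrays apart was not tested.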

How the results depend on the processing

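Loess within each array moved inside minus flanks to -0.32 and -0.32 at centromeres II and III and to 0.37 at the mating-type region. The deposited table, whose values nearly match the loess-corrected ones, gave -0.34, -0.33 and 0.38. Medians over probes gave -0.10, -0.24 and 0.11, and flanks within 10 kb 0.10, -0.20 and -0.033, so that the sign turned for centromere II and the mating-type region. Normexp background correction gave -0.19 at centromere III and 0.21 at the mating-type region, and probes well above background on all 4 arrays -0.020 at centromere III. Narrower insides, chosen after seeing the data, gave -0.029 for the central domain of centromere III, and after loess -0.48 for both central domains and -0.30 around mat3.

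Probe calls toward Cy5, 11 in the main values, numbered 37 after loess, 41 in the deposited table, 4 after normexp and 19 with all non-control spots kept. Those toward Cy3 numbered 22, 23 and, after normexp, 0. Bin calls toward Cy5 numbered 7 after loess and in the deposited table, 1 after normexp, and 2 with probes well above background, with the GC correction or in bins of 10 kb. Those toward Cy3 numbered 2, 2 and, with probes well above background, 1. Gene calls toward Cy5 numbered 2 after loess and in the deposited table and 3 after normexp or with probes well above background. Those toward Cy3 numbered 4 after loess and 1 with all spots kept or with the GC correction.

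Signs turned after loess and in the deposited table for rpt6 (0.56 and 0.59), SPBC23G7.14 (0.16 and 0.18), the probes at chrII:1651277-1651336 in rps402 (0.093 and 0.14), chrIII:1153943-1154002 (0.18 and 0.50) and chrII:2121699-2121756 (0.15 and 0.22), and the bins chrII:2120000-2124999 (0.49 and 0.50) and chrII:2125000-2129999 (0.064 and 0.080). The bin chrII:2120000-2124999 was also at 0.23 after normexp, 0.076 with probes well above background and 0.0054 with the GC correction, and ran from -0.27 to 0.25 without 1 replicate. The bins whose sign also turned without 1 replicate were chrII:1620000-1624999, from -0.20 to 0.0020, chrII:2130000-2134999, from -0.22 to 0.032, and chrIII:1065000-1069999, from -0.12 to 0.092. The last of these was at 0.10 with probes well above background.

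Leaving out each replicate in turn gave inside minus flanks of -0.091 to 0.063 at centromere II, -0.13 to -0.010 at centromere III and -0.051 to 0.13 at the mating-type region. Probe calls then ran from 3 to 9 toward Cy5 and from 0 to 1 toward Cy3, bin calls from 0 to 3 and from 0 to 1, and gene calls from 0 to 6 toward Cy5 with 0 toward Cy3. The cause of these changes was not tested. No paired analysis was possible because all arrays belong to 1 group. The limits are 2 immunoprecipitations, no untagged strain analysed here, Cy5 signals that repeated poorly between arrays, and repeats that were largely without probes.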
